A study of Rattus norvegicus with 99 samples.

Results

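The 9 genes described here encode potassium channels that repolarise the heart, and they were taken from the deposited whole-heart table by symbol. All 9 were among its 17337 genes: Kcnd2, Kcnd3 and Kcnip2, Kcna5, Kcnq1 and Kcnh2, and Kcnj2, Kcnj3 and Kcnj5. The tissue came from 33 male F1 rats of Wistar Kyoto mothers and Lewis fathers, and left ventricle (LV), septum (Spt) and right ventricle (RV) of each animal gave 1 polyadenylated RNA library, 99 in all. Aortic banding (AOB), which loads the LV, or pulmonary artery banding (PAB), which loads the RV, was done with a clip around the vessel of growing rats, and sham-operated animals were the controls. Times and ages are those of the labels and differ from those in the published methods. For strain and sex, the published methods name Wistar × Lewis hybrids and mention both male and female rats. Per chamber, Sham-H, PAB-H and AOB-H held 7 animals each, taken at the compensated stage 7 weeks after surgery at an age of 11 weeks. Sham-RF (2 animals) and PAB-F (3 animals) were taken 21 weeks after surgery at 27 weeks, and Sham-LF (3 animals) and AOB-F (4 animals) 24 weeks after surgery at 30 weeks, PAB-F and AOB-F being the failure stage. The comparisons asked whether these genes differed between chambers, between banded and sham hearts, and between stages.

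Cardiac action potentials end when potassium leaves the cell through several kinds of channel that open one after another. In rat ventricle, a fast transient outward current gives early repolarisation. Its pores are built from the subunits encoded by Kcnd2 and Kcnd3, and the protein made from Kcnip2 assists them. Delayed rectifier channels (Kcna5, Kcnq1, Kcnh2) act later, and inward rectifiers (Kcnj2, Kcnj3, Kcnj5) close the action potential, hold the resting potential or, for Kcnj3 and Kcnj5, respond to acetylcholine, mainly in atrial muscle.

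Libraries held 12.06 to 24.2 M counts, with a median of 17.39 M. No pair of libraries of a group agreed within sampling noise, the lowest chi-square per degree of freedom over 228 pairs being 3.562. The RV minus LV difference over 50 chamber genes ran in a shared direction in 30 of 33 animals and in the opposite direction in 3, Sham-H 6, PAB-H 2 and AOB-H 1. Their labels were kept. Some sham chamber differences of Kcnd2, Kcnd3 and their ratio are also given without them, and most other values include them. Library numbers in the labels formed 3 series. At 7 weeks, LV and RV libraries came from all 3 series, and septum libraries from the second and the third. At the failure stage LV and RV libraries were all of the second series and septum libraries of the third. The ventricular cardiomyocyte markers were abundant in every library, with Tnnt2 at 14236 to 29268 CPM (counts scaled to a common library total). They mark heart muscle and are no check of the chamber labels. Myl7, an atrial marker, was at 1.03 to 1131 CPM over the libraries. Whole tissue was sequenced, so that fewer cells of a type and less RNA per cell cannot be told apart.

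The promoters of Kcnd2, Kcnd3 and Kcnj5 are shown because these were the members that differed between septum and RV in sham hearts. RefSeq promoter windows in the rat build GRCr8, which is not the authors' build, were found for 6 of the 9 members, and each runs from 250 bases before to 50 bases after the start site. They lie at chr4:50742235-50742534 (plus strand, Kcnd2), chr2:195626066-195626365 (plus strand, Kcnd3) and chr8:39011047-39011346 (minus strand, Kcnj5). Capitals mark the GC box GGGCGG on either strand.
Kcnd2: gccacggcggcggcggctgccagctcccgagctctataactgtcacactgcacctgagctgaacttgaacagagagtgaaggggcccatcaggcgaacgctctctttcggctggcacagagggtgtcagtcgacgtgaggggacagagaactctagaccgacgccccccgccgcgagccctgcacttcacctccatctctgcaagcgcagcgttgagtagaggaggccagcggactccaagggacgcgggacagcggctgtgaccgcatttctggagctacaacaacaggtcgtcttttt
Kcnd3: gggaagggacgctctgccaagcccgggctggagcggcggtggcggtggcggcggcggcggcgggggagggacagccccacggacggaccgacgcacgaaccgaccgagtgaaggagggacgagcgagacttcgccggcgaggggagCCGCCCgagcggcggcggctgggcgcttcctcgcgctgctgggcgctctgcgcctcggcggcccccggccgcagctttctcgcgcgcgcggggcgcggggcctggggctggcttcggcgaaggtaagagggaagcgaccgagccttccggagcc
Kcnj5: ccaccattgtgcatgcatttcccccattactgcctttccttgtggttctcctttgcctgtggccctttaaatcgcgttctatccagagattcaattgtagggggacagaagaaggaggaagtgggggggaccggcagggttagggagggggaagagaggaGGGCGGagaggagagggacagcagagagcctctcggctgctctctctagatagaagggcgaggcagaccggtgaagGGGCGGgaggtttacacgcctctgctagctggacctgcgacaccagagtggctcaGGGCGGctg
Kcnd3 held 1 GC box, Kcnj5 held 3 and Kcnd2 held 0, where 33.1% of the 33469 promoters in the table held at least 1. The GATA motif AGATAA was in none of the windows of the 6 members and in 11.6% of all promoters, and neither was the Iroquois motif ACANNTGT (7.89% of all promoters), whose core is the E-box CANNTG (72.1%). The TATA motif TATAAA was likewise absent from all 6 and was in 14.2% of all promoters. The G and C content was 61.7% for Kcnd2, 77.7% for Kcnd3 and 59% for Kcnj5, beside a median of 51.7%. These are descriptions of letters in 1 window per gene and not of bound sites.

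In sham hearts the delayed rectifier genes Kcnq1 and Kcnh2 were the most abundant members per length and Kcnip2 was close to absent. Over the 36 sham libraries the median deposited FPKM, which divides by gene length, was 20.2 for Kcnq1, 13.8 for Kcnh2, 10.7 for Kcnj5, 9.12 for Kcna5 and 5.70 for Kcnj3. Below them were Kcnd2 at 3.595, Kcnj2 at 3.18, Kcnd3 at 2.41 and Kcnip2 at 0.0123. Neighbours in this order overlapped in range, except Kcnd3 and Kcnip2. Within libraries the order was firmer for some pairs: Kcnq1 exceeded Kcnh2 in 35 of 36, and Kcnh2 exceeded Kcnj5 in 32, whereas Kcnj5 exceeded Kcna5 in 21 and Kcnd2 exceeded Kcnj2 in 20.

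**Figure D1:**
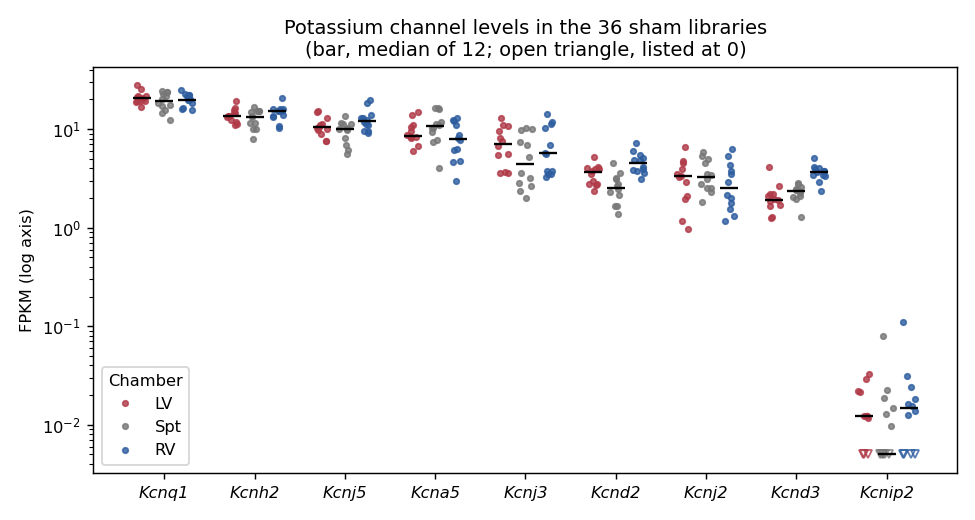
Deposited FPKM (log axis) of the 9 genes in sham libraries of LV, Spt and RV, 12 per chamber, with a bar at each median and open triangles for libraries listed at 0. Kcnq1 and Kcnh2 lie highest and Kcnip2 lowest, with a median of 0.0123.

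Kcnip2 encodes the auxiliary subunit of the transient outward channel and is known to be well expressed in ventricle, but the table held almost no counts for it. It had 0 counts in 34 of 99 libraries, 1 to 3 in 49 and more than 3 in 16, with a highest count of 16 and 203 counts in all. In 11 of the 21 groups no library exceeded 3 counts, the floor used here. The counts passed the filter on low values in LV and in the fit of all 99 libraries alone. No fold change is given for it, and it is left out of the counts of members below, which therefore cover 8 members. Why the gene was at this level in a tissue where it is known to be abundant was not tested.

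The transient outward channel genes differed between the chambers of sham hearts. Kcnd3 was higher in RV than in LV, and Kcnd2 and Kcnd3 were both lower in septum than in RV. Of the 8 members, 1 was called higher and 0 lower in RV against LV at an adjusted p under 0.05 (edgeR's quasi-likelihood test over all genes), where 5.85% of 11924 genes were called higher and 4.37% lower. In septum against RV 3 were called lower and 0 higher, where 4.35% of genes were called lower and 3.71% higher. In septum against LV none was called by edgeR, where 2.32% of genes were called in either direction. There 1 member passed an unadjusted p under 0.05, as did 14% of all genes. By the DESeq2 Wald test 5 of the 24 member and chamber pairs were called, against 4 by edgeR. The share of all genes that DESeq2 called is not given here.

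Kcnd3, a pore subunit of the transient outward channel, was at a median of 13.2 CPM in the 12 sham LV libraries (8.52 to 28.3), 16.2 in septum (8.62 to 19.4) and 25.5 in RV (16.2 to 34.9). The library Sham-H LV 6, of an animal whose chamber labels were in question, held the highest LV value. RV exceeded LV in 11 of 12 animals, and septum was below RV in 11 of 12. Kcnd3 was 0.82 ± 0.15 (log2, SE) higher in RV than in LV (adjusted p = 0.000537), and 0.67 ± 0.15 lower in septum than in RV, as a log2 difference of -0.67 (adjusted p = 0.00174). Without the 3 animals in question Kcnd3 was 0.99 higher in RV than LV on the log2 scale, and RV was higher in all of the remaining 11 sham animals. With Sham-H animals alone, one of which is the animal in question, the RV minus LV difference of Kcnd3 was 0.53 (adjusted p = 0.746).

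Kcnd2, the other pore subunit, was at a median of 14.8 CPM in sham LV (9.55 to 21.1), 10.2 in septum (5.54 to 18.4) and 18.1 in RV (12.6 to 29.0). RV exceeded LV in 9 of 12 animals, septum was below LV in 10 and below RV in 11. Septum minus RV was -0.83 ± 0.15 (log2, SE) with an adjusted p of 7.47e-05. RV minus LV was 0.41 ± 0.15 and missed the threshold (adjusted p = 0.0591), and so did septum minus LV at -0.42 ± 0.15 (adjusted p = 0.125). With the animal as a block, which pairs chambers of the same rat, Kcnd2 was called in both (adjusted p = 0.0231 for RV minus LV and 0.0323 for septum minus LV). Without the 3 animals in question both were called as well, with adjusted p = 0.0123 and 0.0283.

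Kcnj5, which encodes a subunit of the acetylcholine-activated channel, was at a median of 33.0 CPM in sham LV (24.0 to 48.6), 31.8 in septum (17.9 to 43.8) and 38.5 in RV (29.3 to 63.1). The ranges overlapped widely, and septum was below RV in 11 of 12 animals. Septum minus RV was -0.42 ± 0.14 (log2, SE; adjusted p = 0.0477). This call was made in 9 of 22 alternatives. Kcna5, the ultrarapid delayed rectifier gene, was at a median of 15.7 CPM in LV (10.9 to 27.0), 19.4 in septum (7.19 to 29.8) and 14.4 in RV (5.34 to 23.5). Septum exceeded RV in 10 of 12 animals, by 0.49 ± 0.20 (log2, SE; adjusted p = 0.128, and 0.00664 with the animal as a block).

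**Figure D2:**
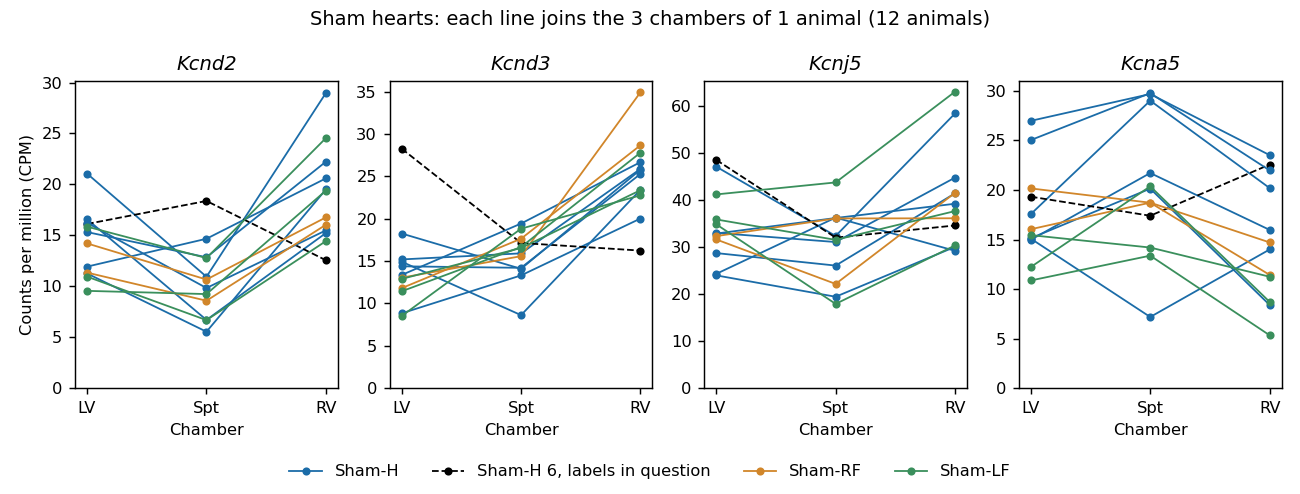
Level (CPM) of Kcnd2, Kcnd3, Kcnj5 and Kcna5 in LV, Spt and RV of the 12 sham animals, 1 line per animal, coloured by group, with the animal whose chamber labels are in question as a black dashed line. Kcnd3 rises from LV to RV in 11 of 12 animals, and Kcnd2 is lowest in septum in most.

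Within the library series these differences were uneven. RV and LV libraries of an animal were of the same series, and in the second series, which holds 8 of the 12 sham animals, Kcnd3 was 1.02 higher and Kcnd2 0.47 higher in RV on the log2 scale. In the first series, with 2 sham animals, the values were 1.10 and 0.81. In the third series, with 2 sham animals of which 1 is the animal in question, they were -0.05 for Kcnd3 and -0.21 for Kcnd2. Septum libraries were mostly of another series than the LV and RV libraries of their animals, so septum differences also hold any series difference. Within a series, septum minus RV could be taken in Sham-H alone. The second series held 2 septum and 3 RV libraries of Sham-H. There the difference was -0.78 for Kcnd2, -0.81 for Kcnd3, -0.42 for Kcnj5 and -0.39 for Kcna5, so that Kcna5 ran the other way. The third series held 5 septum and 2 RV libraries of Sham-H, with both chambers of the animal in question. There the values were -0.40, -0.47, -0.45 and 0.18. With these few libraries none was called within a series in septum against RV.

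Markers of several other cell types were called between chambers. In septum against RV 2 of 6 fibroblast markers were called lower and 0 higher, their summed level being 1768 to 3549 CPM in septum and 2023 to 3405 in RV, while 2 of 5 endothelial markers and 1 of 6 conduction system markers were called higher and 2 of 5 neuron and glia markers lower. In septum against LV 4 of 6 fibroblast and 2 of 5 macrophage markers were called lower. In RV against LV 3 of 5 macrophage markers were called lower (sums of 180 to 274 and 192 to 338 CPM). Called lower as well were 1 endothelial, 1 smooth muscle and pericyte and 1 conduction system marker, and 1 neuron and glia marker was called higher. The smooth muscle and pericyte marker was Kcnj8, which is counted again among the channel genes below. No ventricular cardiomyocyte marker of 8 was called in septum against either ventricle, and 1 was called higher in RV against LV. The part of these markers in the channel differences was not tested.

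The balance of both pore subunits is given as a ratio. It rests on the same Kcnd2 and Kcnd3 reads as the differences above, so its p-values are no separate support for them. The Kcnd2 to Kcnd3 ratio, taken on deposited FPKM and chosen after the values were seen, had a median of 1.78 in sham LV, 1.17 in septum and 1.31 in RV. It was lower in RV than in LV in 11 of 12 animals, by a mean of -0.46 on the log2 scale (2-sided exact sign-flip permutation test, p = 0.0044, adjusted over 3 comparisons 0.0103). Septum minus LV was -0.65 (exact permutation p = 0.00684, adjusted 0.0103), also lower in 11 of 12 animals. Septum minus RV was -0.19 (exact permutation p = 0.223). Septum libraries were mostly of another series than the LV and RV libraries of the same animal. Both septum differences of the ratio therefore mix chamber and series, which the permutation test cannot separate. Without the animal in question the ratio was below that of LV in 11 of 11 animals in both chambers.

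Other potassium channel genes and their partners were counted from a list of 57, of which 56 were in the table and 41 were tested in the fit of all 99 libraries. In RV against LV 3 were called higher and 2 lower, a share near that of all genes (5.85% higher and 4.37% lower). Higher in RV were Kcnn4, a calcium-activated channel, by 0.65 ± 0.15 (log2, SE; adjusted p = 0.00355), Irx4, a transcription factor of ventricular muscle, by 0.41 ± 0.12 (adjusted p = 0.019) and Akap9, a scaffold of the Kcnq1 channel, by 0.29 ± 0.08 (adjusted p = 0.0209). Lower in RV were Kcnc4, a voltage-gated pore subunit, at -0.77 ± 0.25 (adjusted p = 0.0343) and Kcnj8, a pore subunit of ATP-sensitive channels that is also a pericyte marker, at -0.37 ± 0.12 (adjusted p = 0.0363). Of these, Irx4 belongs to the Iroquois factors, among which Irx5 is known to repress Kcnd2 across the ventricular wall.

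In septum against RV 1 listed gene was called higher and 2 lower, again near the share of all genes (3.71% and 4.35%). Irx5 was 0.50 ± 0.13 (log2, SE) higher in septum (adjusted p = 0.00995), while Kcne2, an accessory subunit of delayed rectifier channels, was at -1.02 ± 0.18 (adjusted p = 3.42e-05) and Kcnn4 at -0.44 ± 0.15 (adjusted p = 0.0499). In septum against LV Kcne2 alone was called, at -0.74 ± 0.18 (adjusted p = 0.00902), where 1.33% of genes were called lower. Its level in Sham-H was 0.954 to 2.49 CPM in LV, 0.399 to 1.18 in septum and 0.996 to 2.13 in RV, and in Sham-LF 0.945 to 1.59, 0.352 to 1.11 and 1.38 to 2.14. The median was lowest in septum in both groups.

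Banding did not move any of the 8 members past the threshold. In 12 comparisons of banded with age-matched sham hearts, 4 per chamber, 0 of 96 member and comparison pairs were called by edgeR's quasi-likelihood test and 0 by the DESeq2 Wald test, which gave no adjusted p for 7. An unadjusted p under 0.05 was reached by 6 of the 96, and by 0.937% to 15.9% of all genes per comparison. At the adjusted threshold 0.837% of genes were called in AOB-F against Sham-LF in LV, 0.232% in septum (0.0774% lower), and 0% in the other 10 comparisons. Log2 fold changes of the members spanned -0.91 to 1.33, and the lowest adjusted p was 0.135. The upper end was Kcnj3 in PAB-F RV, which was 0.71 without PAB-F 3. Values for the members that came closest follow. The 95% intervals were computed from the estimate and its SE by a normal approximation, and are somewhat narrower than the test implies. For Kcnd3 in AOB-F septum the interval was -0.98 to -0.007, while the unadjusted p of edgeR's quasi-likelihood test was 0.0556.

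**Figure D3:**
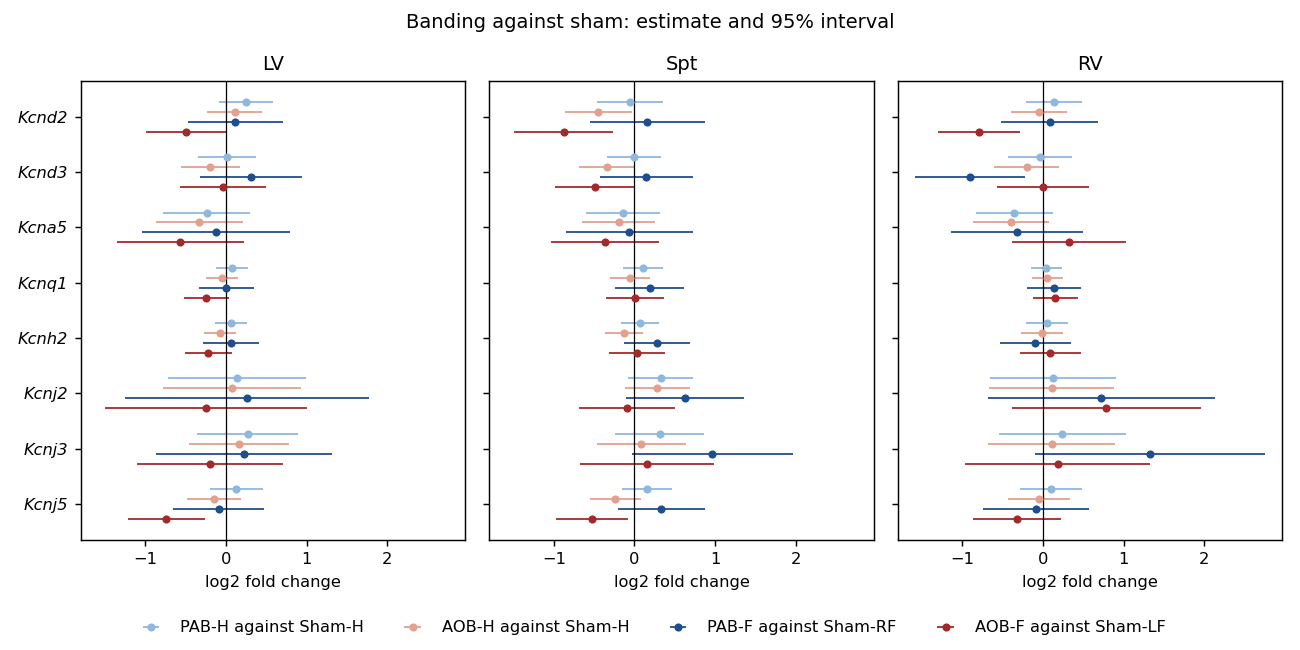
Log2 fold change of 8 members, banded against age-matched sham, in LV, Spt and RV, points with 95% intervals by normal approximation, 4 comparisons per gene. Most intervals span 0, the widest belong to Kcnj2 and Kcnj3 at the failure stage, and the AOB-F points of Kcnd2 lie left of 0 in all 3 chambers.

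Kcnd2 after aortic banding at the failure stage was lower in all 3 chambers as a value and called in none. In septum the 4 AOB-F libraries held 4.49, 5.13, 4.69 and 6.64 CPM and the 3 Sham-LF libraries 6.68, 9.24 and 12.8. In RV they held 8.13, 11.4, 13.6 and 11.7 against 14.4, 19.4 and 24.5. In LV they held 6.43, 8.23, 11.3 and 8.53 against 10.9, 9.55 and 15.9. The groups did not overlap in septum or RV and overlapped in LV, where AOB-F 3 lay above the lower shams.

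The log2 fold change of Kcnd2 was -0.88 ± 0.31 (SE, 95% interval -1.495 to -0.26, adjusted p = 0.205) in septum. It was -0.79 ± 0.26 in RV (-1.30 to -0.29, adjusted p = 0.328) and -0.49 ± 0.25 in LV (-0.99 to 0.01, adjusted p = 0.424). Without Sham-LF 3 these values were -0.61, -0.60 and -0.25. Libraries that do not overlap and are lower in AOB-F were seen for 2 of 8 members in septum (Kcnd2 and Kcnd3), where 4.5% of genes had this, for 1 in RV (Kcnd2, 4.54% of genes) and for 1 in LV (Kcnj5, 5.98% of genes). With 4 animals against 3, the septum and RV differences did not pass correction. The LV minus RV difference of the AOB-F response of Kcnd2 was 0.31 ± 0.40 (adjusted p = 0.926), so the response was not shown to differ between ventricles.

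At the compensated stage Kcnd2 in septum was at a median of 8.50 CPM in AOB-H (4.51 to 11.0) and 10.9 in Sham-H (5.54 to 18.4), a log2 fold change of -0.45 ± 0.21 (adjusted p = 0.301). In LV the medians were 16.9 and 16.1 CPM and the log2 fold change was 0.11 ± 0.17 (adjusted p = 0.956). Without AOB-H 1, an animal whose chamber labels were in question, the LV value was -0.0037. The change of the AOB response of Kcnd2 in LV from 7 to 24 weeks was -0.60 ± 0.31 (adjusted p = 0.676). After pulmonary banding Kcnd2 was at 17.7, 14.9 and 19.8 CPM in PAB-F RV and 16.8 and 16.0 in Sham-RF RV, a log2 fold change of 0.08 ± 0.31.

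Kcnd3 came closest to a change in the RV after pulmonary banding. The 3 PAB-F libraries held 21.5, 15.6 and 14.1 CPM and the 2 Sham-RF libraries 34.9 and 28.7. The groups did not overlap, as was so in this direction for 18.5% of genes tested, and for 1 of 8 members. The log2 fold change was -0.91 ± 0.35 (95% interval -1.58 to -0.23, adjusted p = 0.524). At 7 weeks the medians were 22.8 CPM in PAB-H RV and 25.3 in Sham-H RV (log2 fold change -0.04 ± 0.20), and the stage difference was -0.87 ± 0.40 (adjusted p = 1). The difference of the PAB-F response in RV from that in LV was -1.21 ± 0.47 (adjusted p = 0.988), the LV libraries being at 16.2, 17.1 and 12.9 CPM in PAB-F and 13.0 and 11.8 in Sham-RF.

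The ratio of Kcnd2 to Kcnd3 in RV passed correction in neither banding, and the responses were not tested against each other. It was 0.777, 0.826, 0.662 and 0.894 in AOB-F and 1.049, 1.447 and 1.4998 in Sham-LF, a log2 difference of -0.75 (exact permutation p = 0.0286, the smallest this design allows; adjusted over 6 comparisons 0.171). In PAB-F RV it was 1.40, 1.62 and 2.38 against 0.815 and 0.950 in Sham-RF, a log2 difference of 1.00 (exact permutation p = 0.1, the smallest possible; adjusted 0.3). The ratio in Sham-LF and that in Sham-RF did not overlap either, so each banding is to be read against its own sham.

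Kcnj5 came closest to a change in LV after aortic banding at the failure stage. In LV the AOB-F libraries held 20.2, 21.1, 27.8 and 20.3 CPM and the Sham-LF libraries 34.9, 35.9 and 41.3, with no overlap. In septum they held 18.01, 24.8, 25.2 and 19.1 against 17.9, 31.6 and 43.8, with overlap. The log2 fold change was -0.74 ± 0.24 in LV (95% interval -1.22 to -0.27, adjusted p = 0.135) and -0.53 ± 0.23 in septum (adjusted p = 0.328). Without AOB-F 3, whose Kcnj5 value was apart from the other AOB-F libraries and nearest the shams, the LV value was -0.86 and was called (adjusted p = 0.0476). Kcnj5 in LV was called in 1 of 16 alternatives, this one. Without Sham-LF 3, the highest Sham-LF library in each chamber, Kcnj5 was -0.67 in LV, -0.19 in septum and 0.03 in RV, so that the septum and RV values rest on that animal. In RV Kcnj5 was at 33.4, 35.5, 32.8 and 37.8 CPM in AOB-F and 30.4, 37.7 and 63.1 in Sham-LF (log2 fold change -0.32 ± 0.28), and the LV minus RV difference of the response was -0.41 ± 0.37, which was not called. At 7 weeks the LV medians were 31.8 CPM in AOB-H and 32.9 in Sham-H. Markers of atrial muscle summed to 951 CPM in Sham-LF RV 3, beside 104 and 105 in the other Sham-LF RV libraries. In LV and septum of that animal they summed to 31.7 and 46.7 CPM, beside 46.1 and 55.5 in the other Sham-LF LV libraries and 405 and 31.4 in septum. The part of atrial RNA in the Kcnj5 values was not tested.

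**Figure D4:**
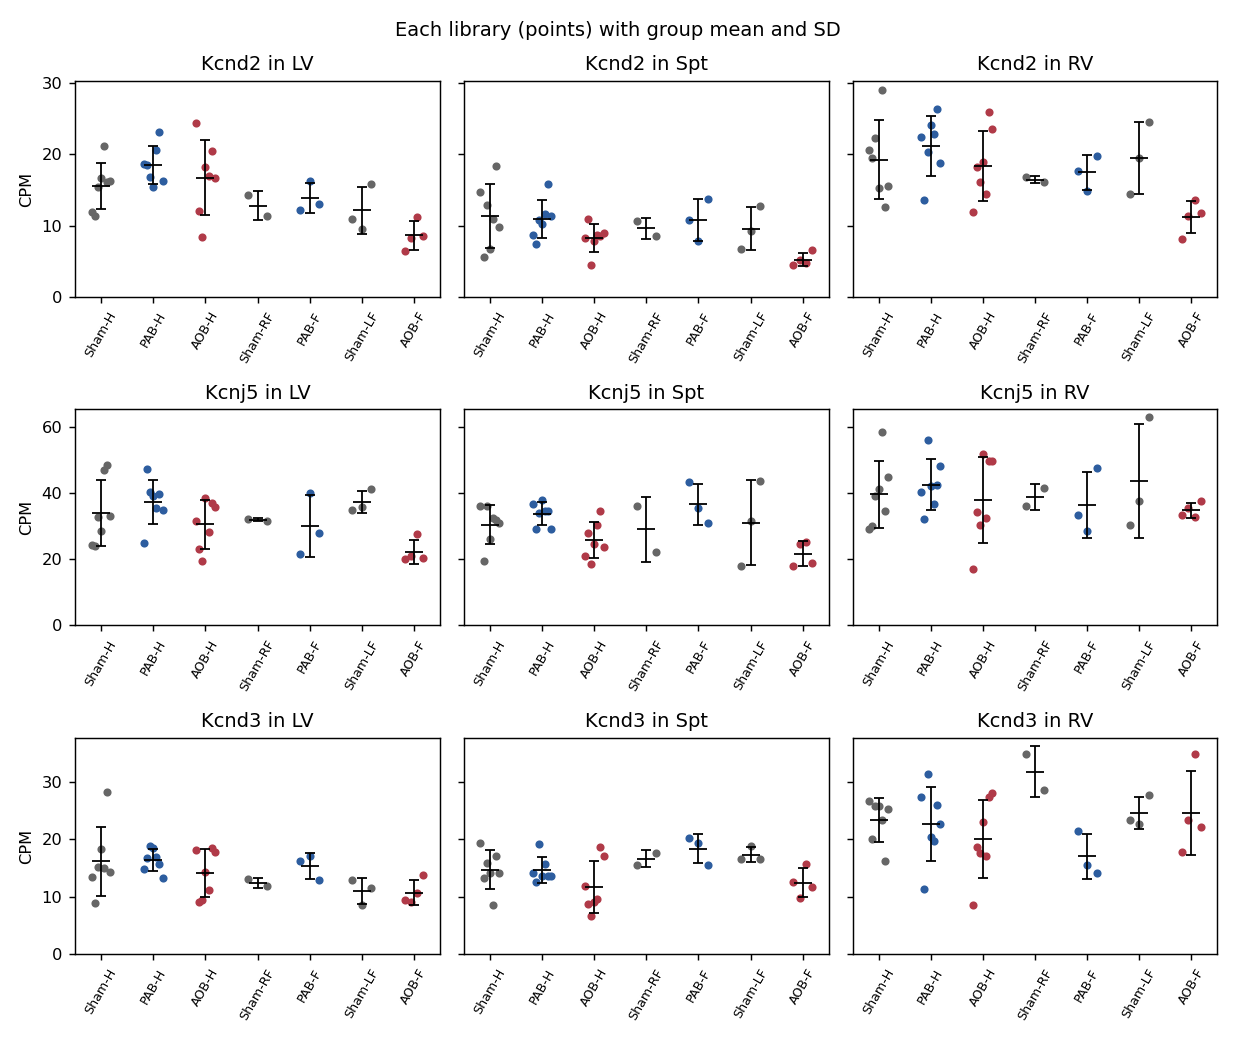
Level (CPM) of Kcnd2, Kcnj5 and Kcnd3 in every library of LV, Spt and RV by condition, with the group mean and SD. AOB-F libraries of Kcnd2 lie below all 3 Sham-LF libraries in septum and RV, and PAB-F libraries of Kcnd3 lie below both Sham-RF libraries in RV.

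Summed marker levels also differed between AOB-F and Sham-LF. The summed ventricular cardiomyocyte markers were 59515 to 74826 CPM in AOB-F and 76316 to 94830 in Sham-LF LV, with 7 of 8 lower in mean, and 69918 to 82093 against 86411 to 105347 in septum, again with 7 of 8 lower. None of the 8 was called. The conduction system markers, of which Shox2 alone was at 0 in some libraries (10 of 99), were 60.1 to 115.9 against 52.0 to 57.3 CPM in LV, 82.0 to 142.2 against 57.0 to 76.7 in septum and 50.3 to 126.4 against 37.7 to 49.2 in RV, with 4, 4 and 6 of 6 higher in mean. In LV 1 conduction system marker and 1 neuron and glia marker were called higher. Fibroblast markers were 2885 to 3801 against 2461 to 2703 CPM in LV, with 4 of 6 higher. Macrophage markers were higher in mean in 5 of 5 in LV and in septum, with sums that overlapped. Smooth muscle and pericyte markers in septum summed to 395 to 479 CPM against 496 to 509. Their list includes the channel genes Kcnj8 and Abcc9, at medians of 37.6 and 156 CPM over all libraries. In PAB-F RV the ventricular cardiomyocyte sum was 74711 to 89164 CPM and in Sham-RF 91945 to 93930. The part of these shifts in the values of Kcnd2, Kcnd3 and Kcnj5 was not tested.

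No delayed rectifier gene was called under banding. Kcnq1 in AOB-F LV was at 47.98, 51.7, 60.3 and 49.1 CPM and in Sham-LF LV at 63.9, 58.2 and 63.2, and in the RV after pulmonary banding it was at 58.6, 58.9 and 62.7 CPM against 48.2 and 60.5. Kcnh2 in AOB-F LV was at 37.0, 37.9, 47.3 and 36.7 CPM and in Sham-LF LV at 42.7, 43.8 and 52.2. Kcna5 in AOB-F LV was at 5.20, 14.9, 9.28 and 5.09 CPM against 12.2, 10.9 and 15.4. The groups overlapped for all 3 genes, and the 95% intervals were -0.53 to 0.04 for Kcnq1, -0.51 to 0.07 for Kcnh2 and -1.35 to 0.22 for Kcna5, on the log2 scale.

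All 8 members were lower as values in AOB-F LV, with a median log2 fold change of -0.24 beside 0.01 over all genes tested, and 1 of 8 reached an unadjusted p under 0.05, as did 12.7% of all genes there. In AOB-F septum 5 of 8 were lower (median -0.23 beside -0.01), and in AOB-F RV 2 of 8 were lower (median 0.12 beside 0.03). In PAB-F RV 4 were higher and 4 lower. In PAB-F septum 7 of 8 were higher (median 0.24 beside 0.00). There 4 members did not overlap upward and 1 downward, with 21.4% and 21.3% of genes doing so.

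Kcnj2 and Kcnj3, the inward rectifier genes of the resting current and of the acetylcholine response, varied between libraries with the library number series. In the 21 LV libraries at 7 weeks, Kcnj2 was at 0.799 to 1.64 CPM in the first series, 2.61 to 8.49 in the second and 4.22 to 7.97 in the third. In RV it was at 1.44 to 2.203, 3.56 to 8.07 and 4.91 to 9.06 CPM. The first series lay below both others without overlap, in both chambers, whether sham or banded. The share of variance between series, on a scale from 0 to 1, was 0.847 for Kcnj2 in LV and 0.849 in RV, with 5.99% and 4.14% of tested genes having a larger share, and a median share over all tested genes of 0.388 and 0.323.

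Kcnj3 showed the same in part. It was at 5.72 to 12.1 CPM in the first series of LV, 12.5 to 27.6 in the second and 17.5 to 24.0 in the third, and its share of variance between series was 0.745 in LV and 0.656 in RV. Kcna5 had shares of 0.403 and 0.417, near the median gene, and Kcnd2 had 0.0569 and 0.0634. What differs between the series beside the numbers is not given in the sources used here. With the series as covariate, the standard error of Kcnj2 in PAB-H against Sham-H in LV was 0.22 in place of 0.44.

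**Figure D5:**
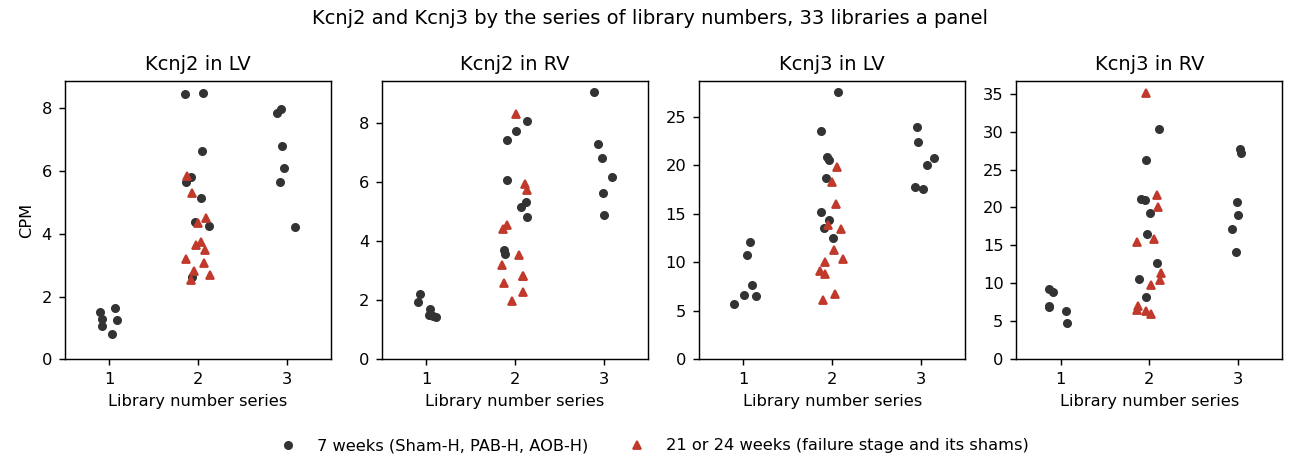
Level (CPM) of Kcnj2 and Kcnj3 in LV and RV by series of library numbers, 33 libraries a panel, circles for the 7-week groups and triangles for the older groups. Kcnj2 libraries of the first series lie below all 7-week libraries of the second and the third.

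The Kcnj2 values in the failure groups were all from 1 series per chamber. PAB-F RV held 3.22, 4.43 and 5.74 CPM and Sham-RF RV 2.57 and 2.81, and AOB-F RV held 5.95, 2.81, 3.53 and 8.32 against 2.29, 1.97 and 4.57 in Sham-LF. The PAB-F and Sham-RF libraries of Kcnj2 and Kcnj3 in RV did not overlap, as was so upward for 16.9% of genes. Neither gene was called. Kcnj3 was highest in the library PAB-F RV 3, at 35.1 CPM, beside 11.3 and 15.5 in the other PAB-F RV libraries and 5.96 and 10.4 in Sham-RF. The same library held 1043.95 CPM of Myl7, a light chain of atrial muscle, and the 6 atrial markers summed to 28.1 to 1870 CPM in PAB-F RV and 36.8 to 65.5 in Sham-RF RV. Sham-LF RV 3, with 548.5 CPM of Myl7, held 21.7 CPM of Kcnj3, beside 6.49 and 6.41 in the other Sham-LF RV libraries. Sham-H LV 6, with 1035.87 CPM of Myl7, held 17.5 CPM of Kcnj3, where 7-week LV libraries of its series held 17.5 to 24.0. PAB-H RV 1, with 1131, held 8.88, where RV libraries of its series held 4.80 to 9.25. AOB-H RV 3, with 1096.67, held 8.28, where 7-week RV libraries of its series held 8.28 to 30.3. Bmp10, a defining atrial marker, was at 0 in 70 of 99 libraries. The part of atrial RNA in the Kcnj3 values was not tested.

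Older shams differed from young shams in no member past the threshold. Of 24 member and chamber pairs 0 were called by edgeR and 0 by DESeq2, and 5 reached an unadjusted p under 0.05, as did 6.99% of all genes in LV, 16.8% in septum and 11% in RV. At the adjusted threshold 0.0171% of genes were called in LV, 0.103% in septum (0.0688% higher and 0.0344% lower) and 0.0852% in RV (0.0682% higher and 0.017% lower). Age, time since surgery and, by the labels, age at surgery go together here and cannot be told apart. Kcnh2 in LV was at 46.1 and 48.3 CPM in Sham-RF, 42.7, 43.8 and 52.2 in Sham-LF and 53.0 to 75.1 in Sham-H (median 57.3). Its log2 difference was -0.37 ± 0.11 (adjusted p = 0.365). The older libraries lay below all young ones, as was so for 0.538% of genes.

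Kcna5 in RV was at 14.7 and 11.4 CPM in Sham-RF, 8.71, 5.34 and 11.2 in Sham-LF and 8.40 to 23.5 in Sham-H (median 20.2), a log2 difference of -0.78 ± 0.28 (adjusted p = 0.318). Kcnj3 in septum was at 9.66 and 4.90 CPM, then 3.69, 5.28 and 13.6, and 4.23 to 18.8 in Sham-H (median 12.8), a log2 difference of -0.72 ± 0.33 (adjusted p = 0.267). Without Sham-LF 3 it was -1.11 (adjusted p = 0.0438), the 1 of 22 alternatives in which it was called. Kcnd3 in LV was -0.48 ± 0.21 and Kcnq1 in RV -0.25 ± 0.11, both with overlapping libraries and adjusted p of 0.657 and 0.428. Without Sham-H 6, the sham whose chamber labels were in question, the Kcnd3 value in LV was -0.29. In LV and RV the older libraries are of the second series, and within it the Kcnh2 difference in LV was -0.42 and the Kcna5 difference in RV -0.86.

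The 2 genes whose pattern was most like each member's over the 21 group means of log2 CPM, given as a description of points that share animals and libraries and with no test, follow. Kcnd2 was most like Atp6ap1l (Pearson r = 0.926) and Slc16a10 (0.921), and Kcnd3 most like Rsrc2 (0.919) and Taf9b (0.908). Kcnj2 was nearest to Cdk12 (0.860) and Pde11a (0.853), and Kcnj3 to Ikbkap (0.922) and Arih2 (0.911). Kcnj5 was nearest to Colq (0.921) and Gstm2 (0.906), and Kcna5 to Cdh26 (0.883) and Pitpnm2 (0.882). Kcnq1 was nearest to Zfyve21 and Klhl21 (both 0.922) and Kcnh2 to Polr1a (0.934) and Nlrx1 (0.933). For Kcnip2, whose counts are near 0, the highest values were 0.742 (Gpr63) and 0.707 (Klf10), and over the 99 libraries these were 0.43 and -0.13.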

How the data were processed

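Counts per gene were taken from the deposited whole-heart table. Per the study's methods, the authors trimmed single-end reads with Trim Galore, used STAR for alignment (genome Rnor6.0, UCSC annotation), and counted reads with featureCounts with multiple overlaps disabled. The strand setting of the counting is not given in the sources used here. Counts, as deposited, are raw. A second set of deposited values is a signal, counts divided by 1 DESeq2 size factor per library, and were not tested. The deposited FPKM values are normalized by gene length and were used for levels between genes and for the Kcnd2 to Kcnd3 ratio.

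Libraries were grouped by the condition and chamber in their labels. Where the labels of RV samples name another tissue, the title and source name were followed. One RV column was matched by its title, because the description names another sham group. Levels in CPM used TMM factors over all 99 libraries. edgeR 4.0.16 in R 4.3.3 fitted the quasi-likelihood model after filterByExpr, with 7 groups in each chamber (11703, 11624 and 11734 genes for LV, Spt and RV) or 21 groups over all chambers (11924 genes), with Benjamini-Hochberg adjustment over all genes tested and a threshold of 0.05. Fits were tested on simulated data. Alternatives were DESeq2 1.42.0 and its size factors, no filter, the library series as covariate or alone, blocks, each animal left out, and the 3 animals in question left out. The block without those animals was added after seeing the data. Each animal of a group is a separate rat, and its chambers were matched by the animal number in the labels. Shams of the chamber comparisons were weighted by group size, 7, 2 and 3. Named genes were the 9 members, listed channel genes that were called or needed beside a member, and for each member the 2 genes of highest correlation. Members and lists were chosen with earlier results of these data known.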

Additional observations from a re-analysis of the deposited data

Results flagged for a closer look

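In groups of 4 to 10 libraries, 1 library stood apart from the others by Dixon's 95% criterion in 7 of 96 gene and group pairs, and chance gives about 1 in 20. Kcnh2 was at 47.32 CPM in AOB-F LV 3, beside 37.9 in the next library. It was at 80.49 CPM in Sham-H RV 5 and 84.21 in PAB-H RV 3, with the next libraries at 62.41 and 64.61. Kcnj5 was at 27.83 CPM in AOB-F LV 3, beside 21.14 in the next, and the same library was thus apart for Kcnh2 and Kcnj5. Kcna5 was at 26.02 CPM in PAB-H RV 6 and at 15.89 in AOB-F RV 2. Kcnj2 was at 8.767 CPM in AOB-H Spt 2, beside 6.36 in the next.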

How the results depend on the processing

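Of 176 member and comparison pairs, 20 had an unadjusted p under 0.05, and 3 of these changed direction under at least 1 alternative; of the other 156, 87 did, and 3 were called under some alternative. In RV against LV in shams 1 member was called, and 2 were with the animal as replicate block, with the DESeq2 Wald test, with the series as covariate, within series 2 and without the 3 animals in question; 4 were with the block without those animals, and 0 with Sham-H alone, within series 1 and within series 3 (1 to 2 leaving out each animal, 2 without Sham-H 6). In septum against LV 0 were called, and 1 with the animal block, with the block without the animals in question, without those animals, and without Sham-H 6 (0 to 1 over animals). In septum against RV 3 were called, 1 with Sham-H alone and 0 within series 2 or 3 (2 to 3 over animals, and 4 with the animal block). In AOB-F LV leaving out each animal gave 0 to 1, in older shams septum 0 to 1, and in PAB-F septum 1 member (Kcnj3) was called with the libraries of both groups alone. Reversed were Kcnd2 RV minus LV in series 3 (-0.2099), Kcnd3 RV minus LV in series 3 (-0.04536) and Kcna5 septum minus RV in series 2 (-0.3851). The causes were not tested, beyond fewer samples in the series fits. The share of all genes called under each alternative is not given here, so a rise or fall in these counts is not read as particular to the members.

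Same-numbered samples of a chamber at 7 weeks correlated above 0.1 in 42 of 63 pairs (from -0.299 to 0.8538) and not in all, so the numbers were not taken as pairs. Most of the 42 were in LV and RV, where the number goes with the library series. The replicate number as replicate block left 0 members called in every banding and age comparison, as without it. Chambers of an animal do pair. Kcnip2 had too few counts for a fold change, and the cause was not tested. The failure groups hold 2 to 4 animals each.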

Other observations

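Among the listed channel genes that are not members, none was called in the 12 banding comparisons. The values nearest the threshold were in AOB-F LV. Kcnj14, an inward rectifier pore subunit, was at 12.2 to 32.4 CPM in AOB-F and 8.24 to 10.8 in Sham-LF (log2 fold change 1.17 ± 0.30 SE, adjusted p = 0.0574). Kcnk2, a mechanosensitive tandem-pore channel, was at 2.00 to 13.1 CPM against 14.8 to 17.7 (-1.29 ± 0.35, adjusted p = 0.0691). Kcne1, the accessory subunit of the Kcnq1 channel, was at 4.45 to 18.4 CPM against 3.01 to 3.89 (1.56 ± 0.45, adjusted p = 0.0829). In septum these 3 genes had log2 fold changes of 1.12, -0.95 and 1.78, with adjusted p of 0.105, 0.15 and 0.12.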
